A study of Mus musculus with 4 samples.

Results

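This section describes 46 genes that move or hold zinc, iron, copper and magnesium, out of 18820 genes measured, in Lgr5-reporter cells of the cultured mouse embryonic kidney. They were taken by gene symbol: every numbered member of the Slc30a, Slc39a, Slc11a, Slc31a, Slc40a and Slc41a transporter families, together with Mt1, Mt2, Mt3, Mtf1, Atp7a, Atp7b, Tfrc, Trf, Fth1, Aco1, Ireb2, Heph, Cp and Lcn2. The rule uses no measured value, though the genes were proposed with earlier results of these data known. The kidneys came from embryos at about day 14 of gestation and were kept in organ culture for about 10 days. All samples carried the Lgr5-EGFP-Ires-CreERT2 knock-in (line B6.129P2-Lgr5tm1(cre/ERT2)Cle/J), in which the Lgr5 locus drives EGFP and a tamoxifen-inducible Cre. The labels name no inducer. Single cells were sorted by flow cytometry into a GFP-high fraction (2 arrays, from kidneys titled A and B) and a GFP-negative fraction (2 arrays, kidneys B and D), which holds every cell type without reporter signal, and total RNA was hybridised to Affymetrix arrays. As a check of the sort, Lgr5 had log2 values of 10.43 and 10.34 in GFP-high cells, against 6.39 and 6.31 in GFP-negative cells. The arrays are called A-high, B-high, B-negative and D-negative here. The labels do not say whether the kidney letters stand for separate animals or litters, so the error behind each p-value is that between 4 arrays and may be technical only.

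Cells take up zinc into the cytosol mainly through the Slc39a (ZIP) proteins and remove it, to the outside or into vesicles and the Golgi, through the Slc30a (ZnT) proteins. Metallothioneins are small cysteine-rich proteins that bind zinc and copper, and the zinc-sensing transcription factor encoded by Mtf1 induces them. Iron bound to transferrin enters through the transferrin receptor and is reduced and moved to the cytosol. There it is stored in ferritin or exported by ferroportin, with a copper-containing ferroxidase at the membrane. In the kidney, filtered zinc, iron and copper are taken back mainly by the proximal tubule. Magnesium is taken back mainly in the thick ascending limb, and also in the proximal and distal convoluted tubules.

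In GFP-high cells 4 of the 46 genes were higher, 9 were lower and 33 did not pass (limma, adjusted p below 0.05 over all genes). Higher were the copper pump gene Atp7a, the transferrin receptor gene Tfrc, the metal importer gene Slc39a8 and the ferroxidase gene Heph. Lower were the iron exporter gene Slc40a1, the zinc importer gene Slc39a5, the siderophore-binding gene Lcn2, the magnesium transporter genes Slc41a3 and Slc41a2, Trf (transferrin), Slc31a2, Slc30a3 and Cp. The 13 called genes make up 28.3% of the 46, beside 19.2% of all genes. Calls upward made up 8.70% of the genes described here and 8.08% of all genes, and calls downward 19.6% and 11.2%. These shares of all genes are the reference for each count by role or list below. Higher genes were 42.0% of all calls, or 52.9% after each array was centred on its median, with the same 4 and 9 metal genes called. The median log2 difference, GFP-high minus GFP-negative, was -0.03 over the 46 genes and 0.05 over all genes. The ranges of the 2 groups did not overlap in 27 of the 46 genes (58.7%), against 57.3% of all genes.

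With 1 array left out, a fit has 1 residual degree of freedom, and the lone array of a fraction is assumed to vary like the other fraction. The calls over all genes then fell from 3620 to 1123 without A-high, 1241 without B-high, 1631 without B-negative and 1749 without D-negative. In the same order, 1, 1, 1 and 3 of the metal genes stayed higher and 4, 5, 6 and 5 stayed lower. Slc40a1, Slc41a3, Slc30a3 and Atp7a passed in each of these 4 fits. Kidney B is the only letter with an array in both fractions. Within it all 13 called genes differed in the same direction as over the 4 arrays. That direction was fixed in advance, since the fractions do not overlap in any of the 13.

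**Figure D1:**
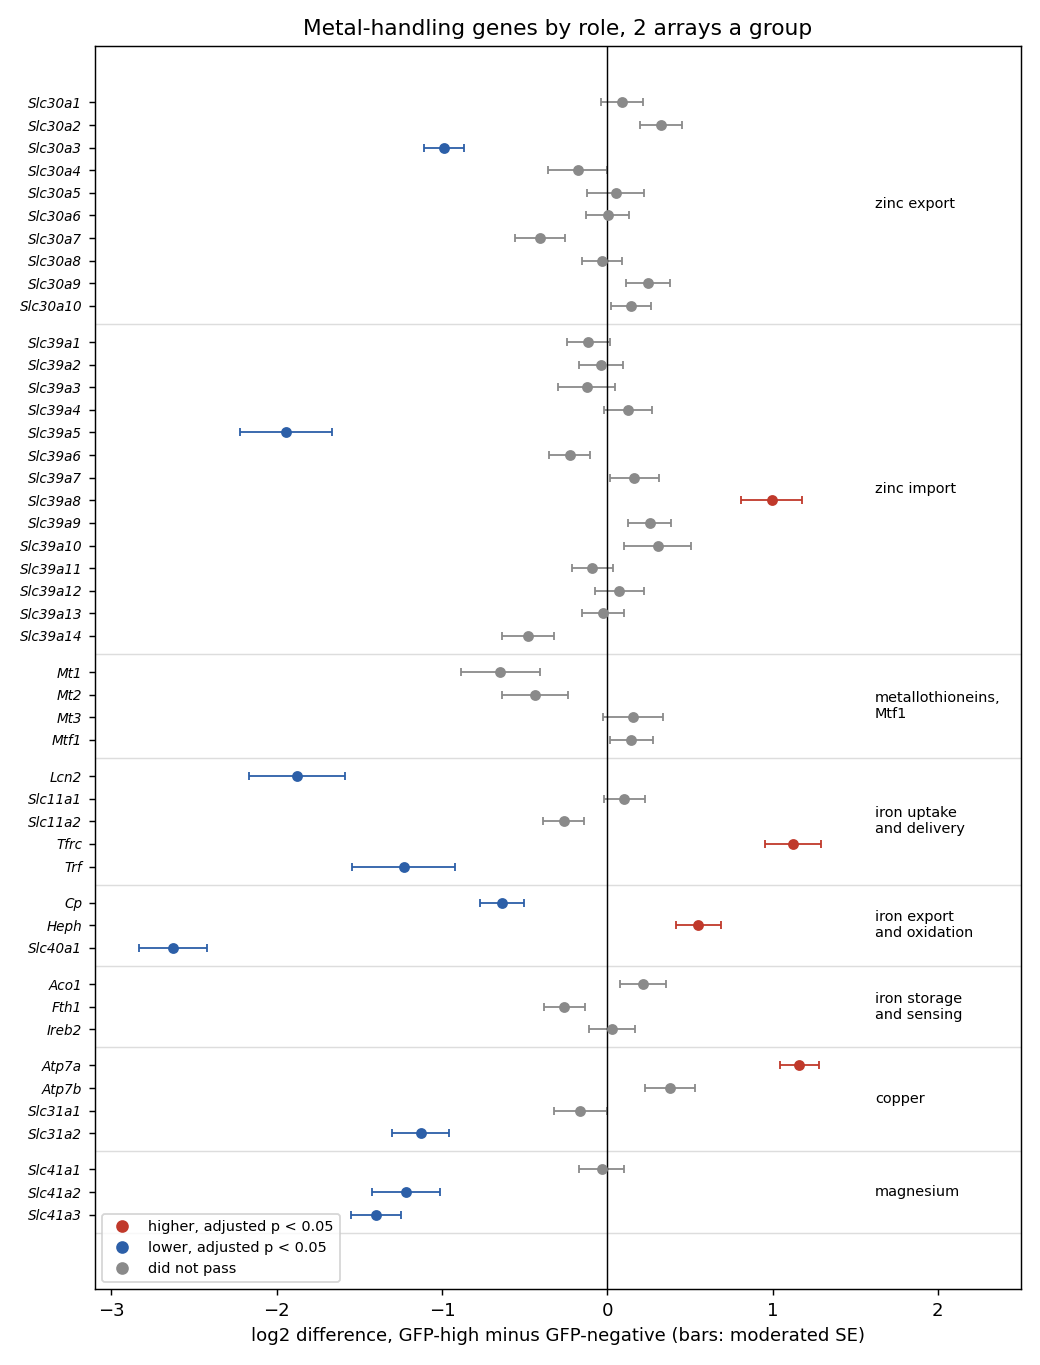
Log2 difference between GFP-high and GFP-negative cells (x axis) for each of the 46 genes (y axis), grouped by role, with the moderated standard error as bars and n = 2 arrays a group. Red points were higher and blue points lower at an adjusted p below 0.05, and grey points did not pass; Slc40a1, at -2.63, lies farthest from 0 and Atp7a, at 1.16, farthest on the upper side.

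**Figure D2:**
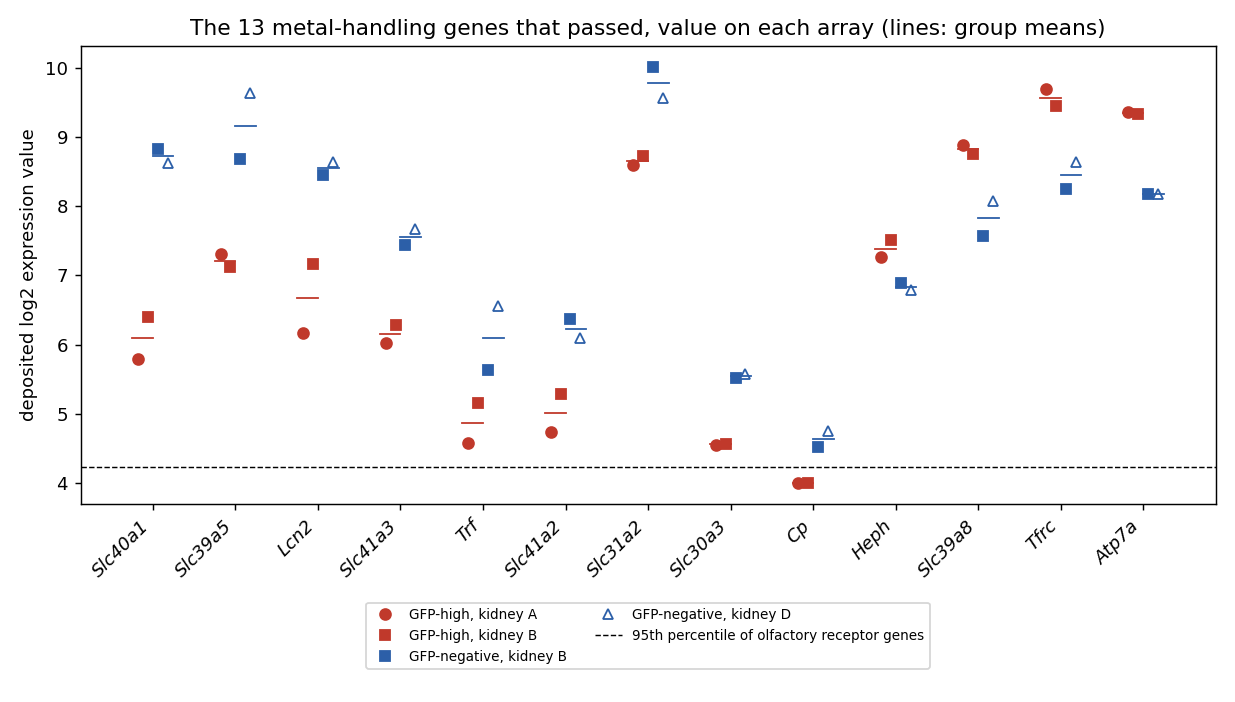
Deposited log2 value (y axis) of the 13 genes that passed, on each of the 4 arrays, with short lines at the group means and a dashed line at 4.24, the 95th percentile of olfactory receptor genes. The fractions do not overlap in any of the 13 genes, and both GFP-high values of Cp lie below the dashed line.

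Of 10 zinc exporter genes of the Slc30a family, 1 was lower, 0 higher and 9 did not pass, with a median log2 difference of 0.03. The share called was 10%, beside 19.2% of all genes. The gene that passed was Slc30a3, whose product loads zinc into vesicles and is best known from synapses. It had log2 values of 4.56 and 4.57 in GFP-high cells, against 5.52 and 5.58 in GFP-negative cells. Both GFP-high values were lower, and the replicates of each fraction lay close together. The GFP-high values lay near 4.24, the 95th percentile of olfactory receptor genes, a reference for background. With 16 added to each linear value the log2 difference was -0.67. The fraction means were 4.56 ± 0.0043 and 5.55 ± 0.044 (SD, n = 2 each), a log2 difference of -0.99 (SE 0.119, adjusted p = 0.00114).

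The other 9 genes of the family did not pass. Slc30a5, of a Golgi zinc transporter, stood at 9.05 in GFP-high cells and at 8.99 in GFP-negative cells. Slc30a6, whose product forms a pair with that of Slc30a5, stood at 8.36 in both. Slc30a9 stood at 8.77 against 8.52 (adjusted p = 0.281). Slc30a7, of a further Golgi transporter, had the lowest difference among those that did not pass, at 7.72 against 8.13 (log2 difference -0.41, adjusted p = 0.122). Slc30a1, of the exporter at the plasma membrane that is induced by zinc, stood at 6.75 ± 0.107 and 6.66 ± 0.068 (SD, n = 2 each), with overlapping arrays. Slc30a8, of the zinc transporter of insulin granules, lay at 3.25 and 3.28, below 4.24, the 95th percentile of the 990 olfactory receptor genes, which serves here as a reference for background.

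Of the 14 zinc importer genes, 1 was higher, 1 lower and 12 did not pass, with a median log2 difference of -0.03. The share called was 14.3%, beside 19.2% of all genes. Slc39a5, whose product takes up zinc at the basolateral membrane of polarised epithelia, had log2 values of 7.31 and 7.12 in GFP-high cells, against 8.69 and 9.63 in GFP-negative cells. Both GFP-high values were lower, and the GFP-negative arrays were far apart. The means were 7.21 ± 0.128 and 9.16 ± 0.663 (SD, n = 2 each), 3.84-fold lower (log2 difference -1.94, SE 0.280, adjusted p = 0.00265). Without A-high or B-high it did not pass (adjusted p = 0.123 and 0.129), while it did without either GFP-negative array. Within kidney B the log2 difference was -1.56.

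Proximal tubule markers, like those of other cell types, were lower along with Slc39a5. Of 11 measured markers of that segment 10 were lower in GFP-high cells, and 10 markers of the list were higher on D-negative than on B-negative. Their summed linear values were 585 and 582 in GFP-high cells, 3463 on B-negative and 5186 on D-negative. Endothelial markers were lower in 8 of 10 genes, and 10 were higher on D-negative than on B-negative. Stroma markers were lower in 12 of 13 genes (1 was higher), and 9 were higher on D-negative than on B-negative. For nephron progenitor markers these counts were 9 of 10 and 5. The part of these cell types in the Slc39a5 difference was not tested. In RNA of sorted fractions, fewer cells of a type and less RNA per cell cannot be told apart.

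Slc39a8 encodes an importer of zinc, manganese and iron. It had log2 values of 8.89 and 8.76 in GFP-high cells, against 7.58 and 8.08 in GFP-negative cells, so both GFP-high values were higher. The difference was 1.99-fold (log2 difference 0.99, SE 0.182, adjusted p = 0.00809). It passed without D-negative (adjusted p = 0.0230), but not without A-high or B-high (adjusted p = 0.176 and 0.131) or B-negative (adjusted p = 0.0763). Slc39a14, whose product is the closest relative of that of Slc39a8 and also carries iron, had values of 6.37 and 6.27 against 6.61 and 7.0. Its groups did not overlap and pointed the other way, but it did not pass (log2 difference -0.48, SE 0.159, adjusted p = 0.0850). With the crossed pairing as a block, added after seeing the data, Slc39a14 passed (adjusted p = 0.0421). This block joins the 2 arrays of kidney B, and also A-high with D-negative, whose letters differ.

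The other zinc importers differed by -0.23 to 0.31 on the log2 scale. Slc39a1, of a widely expressed plasma membrane importer, stood at 9.45 against 9.57 in GFP-negative cells. Slc39a9 stood at 9.20 against 8.94, and Slc39a7, whose product releases zinc from the endoplasmic reticulum and Golgi, at 9.04 against 8.87. Slc39a10 stood at 8.86 against 8.55, with arrays of the 2 fractions overlapping. Slc39a4, the intestinal zinc importer gene whose loss causes acrodermatitis enteropathica in people, had 4.40 and 4.27, close to the background reference. Slc39a12 lay below it in both fractions, at 3.32 and 3.25.

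None of the metallothionein genes or Mtf1 passed without a block. Mt1 had log2 values of 9.31 and 10.07 in GFP-high cells, against 10.46 and 10.21 in GFP-negative cells. Mt2 had 10.95 and 11.54 against 11.73 and 11.63. In both genes each GFP-high array lay below each GFP-negative array, and A-high was the lowest of the 4.

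The log2 difference was -0.65 for Mt1 (SE 0.241, adjusted p = 0.120) and -0.44 for Mt2 (SE 0.199, adjusted p = 0.197). With 1 array left out these differences ranged from -1.02 to -0.27 for Mt1 and from -0.74 to -0.14 for Mt2, the smallest in both without A-high. With the crossed pairing as a block, added after seeing the data, Mt1 passed (adjusted p = 0.0265). This block joins the 2 arrays of kidney B, and also A-high with D-negative, whose letters differ. Mt3, of the form known from brain, stood at 5.51 ± 0.306 and 5.36 ± 0.206 (SD, n = 2 each), and Mtf1 at 7.37 ± 0.120 and 7.22 ± 0.093. Mt3, Mt2 and Mt1 follow each other on mouse chromosome 8 with 0 protein-coding genes between them.

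Metallothionein genes respond to zinc through short metal response elements that the Mtf1 product binds. The core was searched as TGCGCNC or TGCACNC on both strands in RefSeq windows (GRCm38.p6) of 250 bases before to 50 after each annotated start. Of the 46 genes 38 had a window, and 22 of these (57.9%) held at least 1 match, against 28.2% of the 27025 genes with a window (25.7% of 32851 windows). Base composition was not matched, the 27025 genes were not limited to those measured on the arrays, and a match describes letters only. The windows of Mt1 and Mt2 are shown because these neighbours hold 3 and 4 matches and had the same order of fractions. That of Slc30a1, also a zinc-induced gene, holds 2 matches, and those of Slc39a5 and Slc39a8, which differed in opposite directions, hold 1 each. For the last 2 genes, which have several annotated starts, the start with a match is shown. Capitals mark the matches, on either strand.
Mt1, chr8:94178839-94179138, plus strand: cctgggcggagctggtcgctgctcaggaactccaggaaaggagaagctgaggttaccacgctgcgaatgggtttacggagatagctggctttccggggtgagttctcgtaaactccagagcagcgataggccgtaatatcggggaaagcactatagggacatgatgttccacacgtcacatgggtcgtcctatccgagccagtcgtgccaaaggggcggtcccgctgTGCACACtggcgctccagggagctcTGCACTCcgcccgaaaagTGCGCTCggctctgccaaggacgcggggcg
Mt2, chr8:94172368-94172667, plus strand: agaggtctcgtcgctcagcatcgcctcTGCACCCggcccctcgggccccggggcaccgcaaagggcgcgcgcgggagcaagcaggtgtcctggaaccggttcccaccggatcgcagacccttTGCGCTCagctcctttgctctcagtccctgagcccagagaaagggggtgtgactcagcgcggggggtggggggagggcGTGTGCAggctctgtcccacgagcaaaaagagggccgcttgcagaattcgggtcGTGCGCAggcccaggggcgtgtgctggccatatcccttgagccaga
Slc30a1, chr1:191906531-191906830, plus strand: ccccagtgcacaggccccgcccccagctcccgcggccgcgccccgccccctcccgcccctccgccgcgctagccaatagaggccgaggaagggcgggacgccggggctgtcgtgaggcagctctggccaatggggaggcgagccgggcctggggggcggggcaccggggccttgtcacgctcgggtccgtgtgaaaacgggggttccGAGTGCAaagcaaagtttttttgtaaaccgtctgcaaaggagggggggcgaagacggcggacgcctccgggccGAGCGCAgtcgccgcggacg
Slc39a5, chr10:128401175-128401474, minus strand: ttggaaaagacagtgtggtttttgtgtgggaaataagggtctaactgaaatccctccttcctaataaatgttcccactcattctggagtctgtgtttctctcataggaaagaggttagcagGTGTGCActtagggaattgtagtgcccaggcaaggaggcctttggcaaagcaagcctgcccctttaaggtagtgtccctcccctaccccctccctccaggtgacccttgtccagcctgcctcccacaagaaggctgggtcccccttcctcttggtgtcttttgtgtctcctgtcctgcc
Slc39a8, chr3:135825407-135825706, plus strand: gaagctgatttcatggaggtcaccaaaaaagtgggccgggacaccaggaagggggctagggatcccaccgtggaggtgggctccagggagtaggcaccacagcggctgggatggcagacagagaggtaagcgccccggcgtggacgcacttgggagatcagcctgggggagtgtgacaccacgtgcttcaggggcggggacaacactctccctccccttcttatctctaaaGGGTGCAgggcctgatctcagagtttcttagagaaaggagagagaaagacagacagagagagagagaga

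The 3 matches of Mt1 lay at -23, 2 and 20 bases from its annotated start, and those of Mt2 at -223, -128, -50 and 4. Positions are counted from 0 at the annotated start to the match's first base. Whether transcription begins at these starts was not tested. Of the 10 called genes with a window, 8 held a match in at least 1 window, beside 22 of all 38 genes described here with a window. The 8 were higher (Atp7a, Tfrc, Slc39a8) or lower (Slc30a3, Slc31a2, Slc39a5, Slc41a2, Slc41a3). In Tfrc, Slc39a8, Slc30a3 and Slc39a5 another annotated window held 0 matches. The core thus stood in windows of genes called in either direction.

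**Figure D3:**
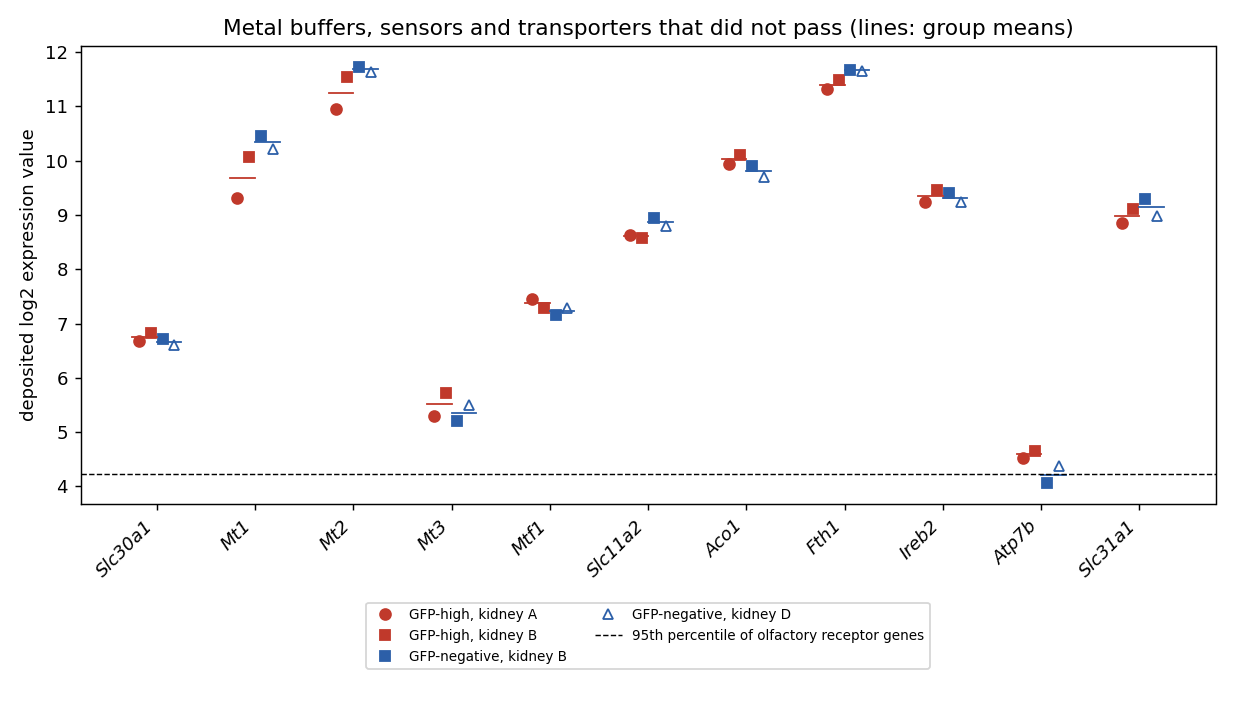
Deposited log2 value (y axis) of 11 genes of metal buffering, sensing and transport that did not pass, on each of the 4 arrays, with short lines at the group means and a dashed line at 4.24, the 95th percentile of olfactory receptor genes. Array A-high is the lowest of the 4 in Mt1, Mt2 and Fth1, while the arrays of Ireb2 and Slc30a1 mix.

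Among genes of iron uptake and delivery, the receptor was higher and its ligand lower in GFP-high cells. Of 5 genes 1 was higher, 2 lower and 2 did not pass. Tfrc, the transferrin receptor gene, had log2 values of 9.68 and 9.45 in GFP-high cells, against 8.25 and 8.64 in GFP-negative cells. Both GFP-high arrays were higher, 2.18-fold on average (log2 difference 1.12, SE 0.170, adjusted p = 0.00338). It passed without D-negative (adjusted p = 0.0270), but not without A-high or B-high (adjusted p = 0.117 and 0.0784) or B-negative (adjusted p = 0.0623).

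Tfrc is also abundant in dividing cells and in red cell precursors. Of 11 measured cell division genes 9 were higher in GFP-high cells, and their summed linear values were 11860 and 10387 in GFP-high cells, against 6272 and 7389 in GFP-negative cells. The part of cell division in the Tfrc difference was not tested. Of 8 measured red cell genes 0 passed, and 7 had a mean below the background reference, among them Alas2, Klf1 and Hba-x.

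Trf, which encodes the plasma iron carrier transferrin, had values of 4.58 and 5.16 against 5.64 and 6.56. The A-high value of 4.58 lay near the background reference. Both GFP-high values were lower, with a wide spread in each fraction (SD 0.409 and 0.653, n = 2 each). The log2 difference was -1.23 (SE 0.312, adjusted p = 0.0322). It was only -0.48 within kidney B, and without D-negative it was -0.77 with adjusted p = 0.240. On D-negative 10 of 11 proximal tubule and 10 of 10 endothelial markers were higher than on B-negative. So were 9 of 13 stroma, 9 of 11 cell division and 7 of 11 thick ascending limb genes. The counts were 7 of 10 for collecting duct, 8 of 14 for macrophage and 5 of 10 for nephron progenitor genes. Trf too had a higher value on D-negative, and the part of cell types or cell division in its difference was not tested. It also did not pass without A-high or B-high (adjusted p = 0.340 and 0.168), and just passed without B-negative (adjusted p = 0.0489). With all probe sets tested adjusted p was 0.0958, and with 16 added to each linear value 0.120.

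Lcn2 encodes a secreted protein that binds iron-carrying siderophores and is released by injured tubules. It had log2 values of 6.17 and 7.16 in GFP-high cells, against 8.45 and 8.64 in GFP-negative cells, so both GFP-high arrays were lower although 0.99 apart from each other. The means were 6.67 ± 0.701 and 8.55 ± 0.132 (SD, n = 2 each), 3.67-fold lower (log2 difference -1.88, SE 0.292, adjusted p = 0.00384). It did not pass without B-negative or D-negative (adjusted p = 0.0949 and 0.112). Slc22a17, which encodes a receptor for the Lcn2 protein, was lower too on the 4 arrays, at 8.14 against 8.75 (adjusted p = 0.0364), but not with any 1 array left out (adjusted p 0.121 to 0.277). On all 4 arrays its call was also lost with the array number as a block (adjusted p = 0.0793), median centring (adjusted p = 0.0716), 16 added to the linear values (adjusted p = 0.0657) or all probe sets tested (adjusted p = 0.0893).

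The divalent metal transporters did not pass. Slc11a2, whose product carries iron out of the endosome, had values of 8.62 and 8.58 against 8.94 and 8.80, lower on both GFP-high arrays by a small step (log2 difference -0.26, SE 0.124, adjusted p = 0.213). Slc11a1, a gene of phagocytes, lay below the background reference in both fractions, at 3.97 and 3.87.

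All 3 genes of iron export and oxidation passed, with 1 higher and 2 lower. Slc40a1 encodes ferroportin, the exporter that hepcidin removes from the membrane. It had log2 values of 5.79 and 6.40 in GFP-high cells, against 8.83 and 8.62 in GFP-negative cells. Each GFP-high value was more than 2 log2 units below each GFP-negative value.

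The means of Slc40a1 were 6.10 ± 0.431 and 8.72 ± 0.148 (SD, n = 2 each), 6.17-fold lower in GFP-high cells (log2 difference -2.63, SE 0.208, adjusted p = 0.000154). It passed with any 1 array left out (log2 difference -2.93 to -2.32, adjusted p at most 0.0221), and the difference within kidney B was -2.43. Slc39a10, with 2 protein-coding genes between it and Slc40a1 on chromosome 1, differed by 0.31 and did not pass.

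Ferroportin is abundant in macrophages, which recycle iron. Of 14 measured macrophage genes 0 were higher and 2 lower (Cd68 and Mrc1), and 12 did not pass. Their summed linear values were 411 and 515 in GFP-high cells, against 581 and 600 in GFP-negative cells. The means of 5 of the 14, Adgre1, Aif1, Fcgr1, Mrc1 and Cd14, lay below the background reference. Proximal tubule, stroma, nephron progenitor and endothelial markers were lower in GFP-high cells, as Slc40a1 and the other 8 lower metal genes were, in 10 of 11, 12 of 13, 9 of 10 and 8 of 10 measured genes, and their part in these differences was not tested.

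The ferroxidases that load exported iron onto transferrin went in opposite directions. Heph, of the membrane-bound hephaestin, had values of 7.26 and 7.51 against 6.89 and 6.79, higher on both GFP-high arrays (log2 difference 0.55, SE 0.138, adjusted p = 0.0306). Heph did not pass with any 1 array left out (adjusted p 0.0869 to 0.223), with all probe sets tested (adjusted p = 0.0725) or with the array number as a block (adjusted p = 0.0688). Cp, of the plasma ferroxidase ceruloplasmin, had 4.0 on both GFP-high arrays against 4.53 and 4.75 (log2 difference -0.64, SE 0.132, adjusted p = 0.0139). Both GFP-high values of Cp lay below the background reference of 4.24, and it did not pass with any 1 array left out (adjusted p 0.0636 to 0.139).

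None of the 3 genes of iron storage and sensing passed. Fth1, the ferritin heavy chain gene, stood at 11.40 ± 0.113 and 11.66 ± 0.024 (SD, n = 2 each), lower on both GFP-high arrays (log2 difference -0.26, SE 0.126, adjusted p = 0.225). Aco1 and Ireb2 encode the iron regulatory proteins, which bind iron-responsive elements in the messages of Tfrc, Fth1 and Slc40a1. Aco1 stood at 10.02 and 9.81, and Ireb2 at 9.35 and 9.32, with log2 differences of 0.22 and 0.03.

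Among 4 copper genes 1 was higher, 1 lower and 2 did not pass. Atp7a, of the ATPase that pumps copper into the Golgi and out of the cell, had log2 values of 9.35 and 9.32 in GFP-high cells and 8.18 on both GFP-negative arrays. The fractions were clearly apart and the arrays within a fraction almost equal. It was 2.24-fold higher in GFP-high cells (log2 difference 1.16, SE 0.118, adjusted p = 0.000496) and passed with any 1 array left out (log2 difference 1.14 to 1.18, adjusted p at most 0.0346). Markers of the thick ascending limb (9 of 11 measured) and collecting duct (5 of 10) were higher in GFP-high cells too. Of the other collecting duct markers 1, Hsd11b2, was lower and 4 did not pass. The part of these segments in the higher metal genes was not tested. Atp7b, a relative of Atp7a and the Wilson disease gene, stood at 4.59 and 4.21, near the background reference, and did not pass (adjusted p = 0.137).

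Slc31a1 encodes the copper importer of the plasma membrane, and Slc31a2 a related protein of endosomes and lysosomes. Slc31a2 had values of 8.59 and 8.72 against 10.01 and 9.56, lower on both GFP-high arrays (log2 difference -1.13, SE 0.173, adjusted p = 0.00356). It passed without B-negative or D-negative (adjusted p = 0.0496 and 0.0195), but not without A-high or B-high (adjusted p = 0.127 and 0.0970). Slc31a1, with 1 protein-coding gene between them on chromosome 4, had 8.85 and 9.10 against 9.30 and 8.98, with overlapping fractions and a log2 difference of -0.16 (adjusted p = 0.575).

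Magnesium transporter genes of the Slc41a family were lower in 2 of 3 members. Slc41a3, which encodes a magnesium exchanger, had log2 values of 6.02 and 6.29 in GFP-high cells, against 7.43 and 7.67 in GFP-negative cells. Both GFP-high values were lower, 2.64-fold on average (log2 difference -1.40, SE 0.152, adjusted p = 0.000677). It passed with any 1 array left out (adjusted p at most 0.0498).

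Slc41a2 had values of 4.74 and 5.30 against 6.38 and 6.09, again lower on both GFP-high arrays (log2 difference -1.22, SE 0.204, adjusted p = 0.00543). It passed without B-high (adjusted p = 0.0414), but not without A-high (adjusted p = 0.0932) or B-negative or D-negative (adjusted p = 0.124 and 0.0708). Slc41a1, of a sodium-dependent magnesium exporter, stood at 8.51 ± 0.085 and 8.54 ± 0.161 (SD, n = 2 each), and did not pass.

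**Figure D4:**
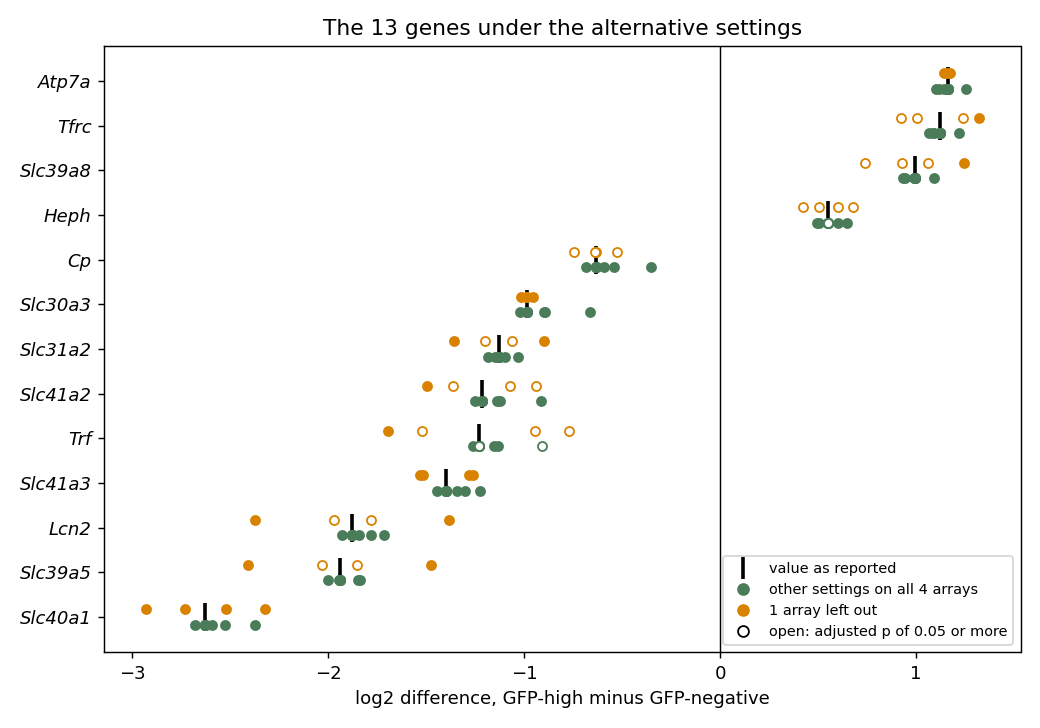
Log2 difference (x axis) of the 13 genes that passed (y axis) as reported (black bars), under the other settings on all 4 arrays (green) and with 1 array left out (orange). Open points have an adjusted p of 0.05 or more; no point crosses 0, and the orange points of Slc40a1, Slc41a3, Slc30a3 and Atp7a are all filled.

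Other genes of the same pathways, from lists written for this comparison, are described by the same test. Of 56 measured genes 3 (5.36%) were higher, 16 (28.6%) lower and 37 did not pass, beside 8.08% higher and 11.2% lower over all genes, with a median log2 difference of -0.14 against 0.05 over all genes. In the list of iron uptake, storage and export 0 of 15 were higher and 7 lower, among them all 4 Steap genes, whose products are membrane reductases or related proteins. Steap4 had values of 4.04 and 4.01 against 5.18 and 6.42, lower on both GFP-high arrays, which lay below the background reference (log2 difference -1.77, adjusted p = 0.0114).

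Steap3, of the endosomal ferrireductase that serves transferrin uptake, had 4.90 and 4.83 against 5.92 and 6.45 (log2 difference -1.32, adjusted p = 0.00232). Steap1 had 4.80 and 4.90 against 5.71 and 5.91 (log2 difference -0.96, adjusted p = 0.00214). All 3 were lower on both GFP-high arrays. None of the 3 passed without A-high (adjusted p = 0.221 for Steap4, 0.106 for Steap3 and 0.0745 for Steap1) or without B-high (adjusted p = 0.205, 0.104 and 0.0588). Steap2, Scara5 and Slc25a37 were the other lower genes beside Slc22a17. With 1 array left out, Steap2 passed only without B-negative (adjusted p = 0.0273, otherwise 0.136 to 0.255), and Scara5 and Slc25a37 in no fit (adjusted p 0.0594 to 0.0962 and 0.125 to 0.263). On all 4 arrays Slc25a37 was lost in 5 settings, among them the number block (adjusted p = 0.0921) and median centring (adjusted p = 0.137). Steap2 was lost with 16 added (adjusted p = 0.0704), all probe sets tested (adjusted p = 0.0759) and the mean of its probe sets (log2 difference -0.40, adjusted p = 0.196), and Steap4 with 16 added (adjusted p = 0.0907).

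Of 8 genes around the hormone hepcidin 1 was higher and 1 lower. Bmp6, the ligand that raises hepcidin in the liver when iron is plentiful, had values of 6.04 and 6.63 against 7.58 and 7.72 (log2 difference -1.32, adjusted p = 0.00345). Bmp6 did not pass without A-high (adjusted p = 0.0506) or B-negative or D-negative (adjusted p = 0.0810 and 0.0952). Erfe, of the hepcidin suppressor erythroferrone, was higher at 5.31 against 4.73 (adjusted p = 0.0488), but not with any 1 array left out (adjusted p 0.115 to 0.328). On all 4 arrays Erfe was also lost with the crossed pairing, cyclic loess, an intensity trend, 16 added or all probe sets (adjusted p 0.0510 to 0.110).

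Of 14 genes of haem and iron-sulphur clusters 1 was higher and 2 lower. Hmox1, of the enzyme that breaks down haem and frees its iron, had values of 5.87 and 6.19 against 7.33 and 6.97, lower on both GFP-high arrays (log2 difference -1.12, adjusted p = 0.00386). Hmox1 passed only without D-negative (adjusted p = 0.0378, otherwise 0.0665 to 0.114). Alas1, of the first enzyme of haem synthesis, was lower at 8.35 against 8.93 (adjusted p = 0.0140), and Cpox, of a later step, higher at 8.19 against 7.64 (adjusted p = 0.0397). Neither passed with any 1 array left out (adjusted p 0.0965 to 0.125 for Alas1 and 0.0677 to 0.243 for Cpox). On all 4 arrays Cpox was also lost with the number block, cyclic loess, 16 added or all probe sets (adjusted p 0.0555 to 0.0905).

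In the list of copper chaperones and copper enzymes 1 of 14 was higher and 5 lower. The lower ones were secreted or membrane enzymes. Loxl1, Loxl2 and Lox, of the copper-dependent enzymes that crosslink collagen and elastin, had log2 differences of -2.57, -2.21 and -2.69 (adjusted p = 6.64e-05, 0.000129 and 0.00605). Loxl1 and Loxl2 passed with any 1 array left out, and Lox, with GFP-high values of 4.88 and 6.54, did not without B-negative or D-negative (adjusted p = 0.121 and 0.145). Of 13 stroma markers 12 were lower too, with summed linear values of 1561 and 1780 in GFP-high cells, against 11242 and 12130 in GFP-negative cells, and the part of stroma in these differences was not tested.

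The higher copper gene was Moxd1, a monooxygenase gene, at 7.79 against 6.75 (log2 difference 1.04, adjusted p = 0.00359). Moxd1 passed only without B-negative (adjusted p = 0.0223, otherwise 0.0504 to 0.118). The cytosolic chaperone genes Atox1 and Ccs differed by 0.07 and -0.06 and did not pass.

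Of 6 further zinc genes 0 were higher and 2 lower, both encoding zinc-containing carbonic anhydrases. Car12 had values of 6.27 and 6.87 against 9.29 and 9.04 (log2 difference -2.60, adjusted p = 0.000164) and passed with any 1 array left out. Car2 had 6.84 and 7.10 against 7.91 and 8.08 (log2 difference -1.03, adjusted p = 0.00237). Both were lower on both GFP-high arrays. Car2 did not pass without A-high (adjusted p = 0.0691) or D-negative (adjusted p = 0.0626).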

How the data were processed

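The deposited values are log2 expression values per probe set, given by the authors in the series' value table for 4 arrays. Per the labels' protocols, RNA was column-purified and biotin-labelled with a whole-transcript kit. Background correction, summary and normalization: not given in the sources used here. Array medians lay between 5.07 and 5.24. Arrays have no read depth, and their number limits the precision.

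Of 35556 probe sets, 21218 named 1 gene in the platform annotation, 1881 several and 12457 were unnamed here. The probe set with the highest mean stood for a gene, which left 18820 genes. No gene was filtered out. limma 3.58.1 in R 4.3.3 (lmFit, then eBayes, group as the only term, two-sided) gave the tests, with Benjamini-Hochberg adjustment over all genes at 0.05. SE is moderated, and folds are linear. The test was checked on simulated data with independent errors and far fewer changed genes than were called here. Such a check does not test the calls themselves. Olfactory receptor genes (990, median 3.32) gave a background reference.

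Genes passing were named with each array's value, then the 4 highest-level others of each role and, among companion genes, up to 3 passing each way by size. A few more genes were picked with their values in view. The members and lists were chosen with earlier results of these data known. Alternatives covered blocks, normalization, filters, probe sets, an added constant, a variance trend and each array left out.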

Additional observations from a re-analysis of the deposited data

How the results depend on the processing

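All 13 called metal genes kept their direction under every alternative fitted. With quantile normalization, cyclic loess, median centring, an intensity trend, probe set means or genes below the olfactory receptor level left out, all 13 stayed called. Under median centring the middle of all genes' differences was 0.15 in place of 0.05, and the share of higher among all called genes 52.9% in place of 42.0%.

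Leaving out genes below the median level left 33 metal genes in the test, of which 5 were lower, with 2385 genes called in all, since 4 lower genes (Slc30a3, Trf, Cp and Slc41a2) were not tested. With 1 array left out 1 to 3 metal genes were called higher and 4 to 6 lower, and 1123 to 1749 genes in all. Adding 16 to the linear values lost Trf, and testing all probe sets lost Trf and Heph.

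Arrays with the same number deviated from their group means in opposite senses (correlation -0.198). With the array number as a replicate block 3 metal genes were higher and 9 lower (Heph lost), with 2959 genes called. With the crossed pairing, chosen after seeing the data, 4 were higher and 11 lower (Mt1 and Slc39a14 gained), with 4102 called. This pairing joins the 2 kidney B arrays, and also A-high with D-negative, whose letters differ. The kidney letter as a random block could not be fitted, since only 1 letter holds 2 arrays. The 2 arrays a group limit the precision.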

Other observations

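A second probe set of Fth1 had values of 5.45 and 4.62 in GFP-high cells, against 4.69 and 4.54 in GFP-negative cells, with a difference of 0.42 against -0.26 for the probe set used, and neither passed. A second probe set of Slc39a1 differed by 0.20 against -0.11, and neither passed. A probe set that names both Slc30a1 and 1700034H15Rik, and therefore stayed out of the gene test, had values of 4.66 and 5.50 in GFP-high cells, against 4.49 and 4.31 in GFP-negative cells.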
